A study of Arabidopsis thaliana with 12 samples.

Results

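Wild type (WT) Arabidopsis thaliana rosettes are described here from 3 RNA-seq libraries, all those labelled WT among the 12 of the series. The plants were 4 weeks old, untreated, grown at 22 °C under 300 µmol photons m-2 s-1 with 8 h of light and 16 h of dark, and were frozen 30 min after the lights came on. Each library held RNA from a separate pool of 8 rosettes, prepared with a stranded mRNA kit and read as pairs of 75 bases. The other 9 libraries, 3 per genotype, were grown alike and came from the mutant vtc2-4, called vtc2 here, the mutant vtc4-4, called vtc4, and the line vtc2/OE-VTC2 L15, called OE, 1 transgenic line in which the labels put the VTC2 overexpression construct into vtc2 plants. They are used only to show where WT stood apart. The labels do not give the accession of the WT or the promoter of the OE transgene.

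A rosette is made mostly of photosynthetic mesophyll, with epidermis, guard cells and veins around it. In green leaves the nucleus supplies the antenna proteins that capture light, most small subunits of both photosystems and the small subunit of Rubisco, the enzyme that fixes carbon dioxide, while the plastid genome encodes the reaction centre proteins and the large subunit of Rubisco. Many leaf transcripts follow the time of day. The morning transcription factors CCA1 and LHY repress evening clock genes such as TOC1 through a promoter sequence known as the evening element.

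The authors' values are FPKM, fragments per kilobase of transcript scaled to the size of the library, so levels of different genes are compared per length throughout. Values with ± are means and SD over n = 3 libraries. The low values rose in steps, and by these 1 fragment on a transcript of 1 kilobase was worth 0.0448, 0.0438 and 0.0442 FPKM in WT replicates 1, 2 and 3. Over all 12 libraries the step ran from 0.0406 to 0.0452 FPKM, so the libraries were of similar depth. A value near this step rests on a single fragment only where the transcript is near 1 kilobase. On a shorter transcript 1 fragment is worth more FPKM, and on a longer one less. The summed FPKM were 743519, 707546 and 755265, within the range of 684606 to 757484 over the other libraries. Across genes, which are not independent replicates, the 3 WT libraries had Pearson correlations of log2(FPKM + 1) of 0.985, 0.983 and 0.986.

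VTC2 (AT4G26850, chromosome 4), which encodes GDP-L-galactose phosphorylase of ascorbate synthesis, was listed at 745.5, 810.4 and 899.7 FPKM in the 3 WT libraries. In vtc2 it lay between 14.8 and 20.3 FPKM and in OE between 366 and 411 FPKM, so the OE libraries held less VTC2 transcript than each WT library. VTC4 (AT3G02870, chromosome 3), which encodes the phosphatase that releases L-galactose, stood at 30.3, 25.2 and 29.3 FPKM in WT and at 0.276 to 0.426 FPKM in vtc4.

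Of 33618 gene identifiers, 16200 reached 1 FPKM in all 3 WT libraries, and 15889 of 27442 nuclear protein-coding genes did so. The single libraries had 16591, 16733 and 16733 identifiers at or above 1 FPKM. Higher levels were rare: 8275 identifiers reached 10 FPKM, 1009 reached 100 FPKM and 85 reached 1000 FPKM in all 3. A further 996 reached 1 FPKM in some but not all of the WT libraries. Nuclear protein-coding genes made up 99.0% to 99.2% of the summed FPKM.

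A small number of genes carried much of the total. The highest gene held 1.32% of the summed mean FPKM, the highest 10 held 8.63%, the highest 100 held 33.7% and the highest 1000 held 62.9%. In ascending numbers, 13, 52, 397 and 2230 genes were enough for 10, 25, 50 and 75 percent of the sum. WT replicate 2 was the least concentrated, with 437 genes for 50 percent of its sum, against 375 and 378 in replicates 1 and 3.

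Photosynthesis genes filled the top of the order. Of the 25 nuclear genes with the highest mean, 11 encode light-harvesting proteins, 5 photosystem I subunits, 4 photosystem II subunits, 2 carriers of electron transport and 2 Rubisco small subunits. The first was LHCB1.5 (AT2G34420, chromosome 2), an antenna protein of photosystem II, at 10089, 8734 and 10289 FPKM. Its neighbour in the order, LHCB1.1 (AT1G29920), also an LHCB1 antenna gene, had 8643, 7210 and 8086 FPKM. These LHCB1 genes are near-identical copies, so the division of reads among them is uncertain, yet LHCB1.5 was above LHCB1.1 in each library, by a ratio of 1.22 ± 0.0528. A further LHCB1 gene, LHCB1.3, is listed at 0 in all 12 libraries and has no place in this order. PSBR (AT1G79040), a small photosystem II subunit, followed at 7698, 7180 and 7926 FPKM. LHCB5, a minor antenna protein, and LHCA4, of the photosystem I antenna, had overlapping values at 6262 ± 657 and 6217 ± 510 FPKM. Of the carbon fixation genes not listed at 0, RBCS3B, a Rubisco small subunit, was the highest at 5323, 4256 and 4921 FPKM.

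The 1 exception among the 25 was GER1 (AT1G72610), a germin-like protein, which lay at 3639, 3396 and 3700 FPKM. All 25 were lowest in WT replicate 2, as were 84 of the highest 100. That library also had the lowest summed FPKM of the WT libraries, at 707546, and the share over all genes was not counted. Among the highest 100, 57 were on the photosynthesis lists and 32 were on no process list at all.

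**Figure D1:**
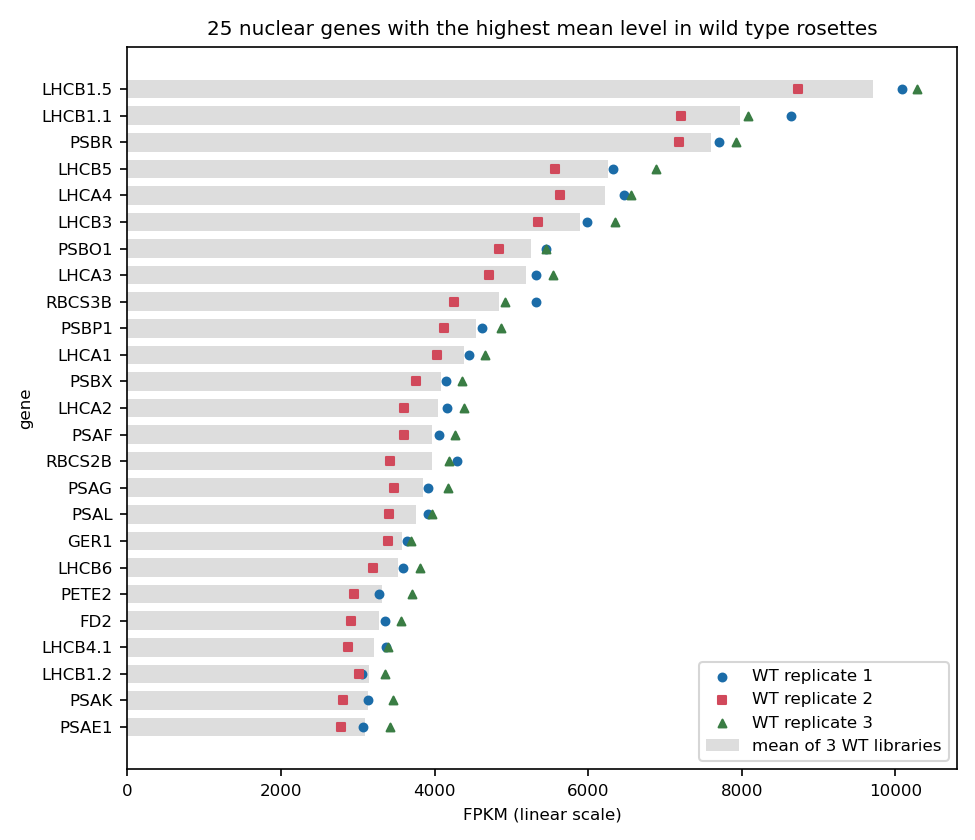
FPKM of the 25 highest nuclear genes on a linear axis from 0, with a grey bar for the WT mean and 1 marker shape per WT library. LHCB1.5 leads at 9704 ± 846 FPKM, and GER1 is the only gene that is on no photosynthesis list.

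The abundant genes outside photosynthesis were of mixed function. MT3 (AT3G15353), a metallothionein, a small cysteine-rich protein that binds metals, had 2608.5, 2797.1 and 2588.5 FPKM. TCTP, the translationally controlled tumour protein homologue, had 1976, 2107 and 2019 FPKM, and THI1, of thiamine synthesis, had 1968, 1704 and 1975 FPKM. Unlike the photosynthesis genes, MT3 and TCTP were highest in WT replicate 2. SAMDC, of polyamine synthesis, stood at 1646 ± 134 FPKM. NIT1, a nitrilase, stood at 1382 ± 15.7 FPKM, and UBQ10, a polyubiquitin gene often used as a reference, at 1012 ± 32.3 FPKM. AT5G42530, whose product is not characterised in the annotation, reached 1856.3, 1819.8 and 1734.8 FPKM. FSD1, the iron superoxide dismutase, lay at 929, 761 and 969 FPKM. None of these genes is on a process list, and they were named for their level after their values were seen.

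Summed by process, the 5 photosynthesis lists together took 26.3%, 24.3% and 26.6% of the summed FPKM, or 25.7 ± 1.28%. Light harvesting alone took 9.81 ± 0.533%, photosystem II 5.11 ± 0.235%, photosystem I 4.27 ± 0.224%, the Calvin-Benson cycle of carbon fixation 4.22 ± 0.251% and electron transport with ATP synthase 2.31 ± 0.124%. The 370 genes named as ribosomal proteins were the next large class at 6.08 ± 0.305%, spread over many genes, 331 of which reached 1 FPKM in all 3 WT libraries. Photorespiration, the salvage of the product formed when Rubisco takes oxygen, took 1.92 ± 0.108%.

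Smaller shares went to other metabolism. Chlorophyll synthesis took 0.776 ± 0.0343%, and CRD1, the cyclase that closes the fifth ring of chlorophyll, accounted for 44.5 ± 1.23% of that list at 2650, 2282 and 2706 FPKM. Glucosinolate synthesis with the myrosinases took 0.412 ± 0.0167%, led by TGG1, a myrosinase that splits glucosinolates, at 1171 ± 34.1 FPKM. Nitrogen assimilation took 0.400 ± 0.0289%, and starch and sucrose metabolism 0.338 ± 0.0107%, led by TPT, the triose phosphate exporter of the plastid, at 941 ± 76.2 FPKM. Histones stood at 0.339 ± 0.0196% and elongation factors of translation at 0.328 ± 0.00848%. The 243 genes of all hand-made process lists together took 30.0 ± 1.34%.

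The photosynthesis share was 24.2% in vtc2, 26.4% in vtc4 and 25.2% in OE, values on both sides of the WT mean. Weighting each gene by its transcript length, which turns FPKM into a share of fragments, lowered the WT share from 25.7% to 20.4%. It also lowered light harvesting to 8.19%, photosystem I to 2.61%, ribosomal proteins to 3.93% and histones to 0.211%, and raised nitrogen assimilation to 0.662% and starch and sucrose metabolism to 0.517%. The Calvin-Benson cycle, at 4.298% with this weighting, then stood above both photosystem I and ribosomal proteins.

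**Figure D2:**
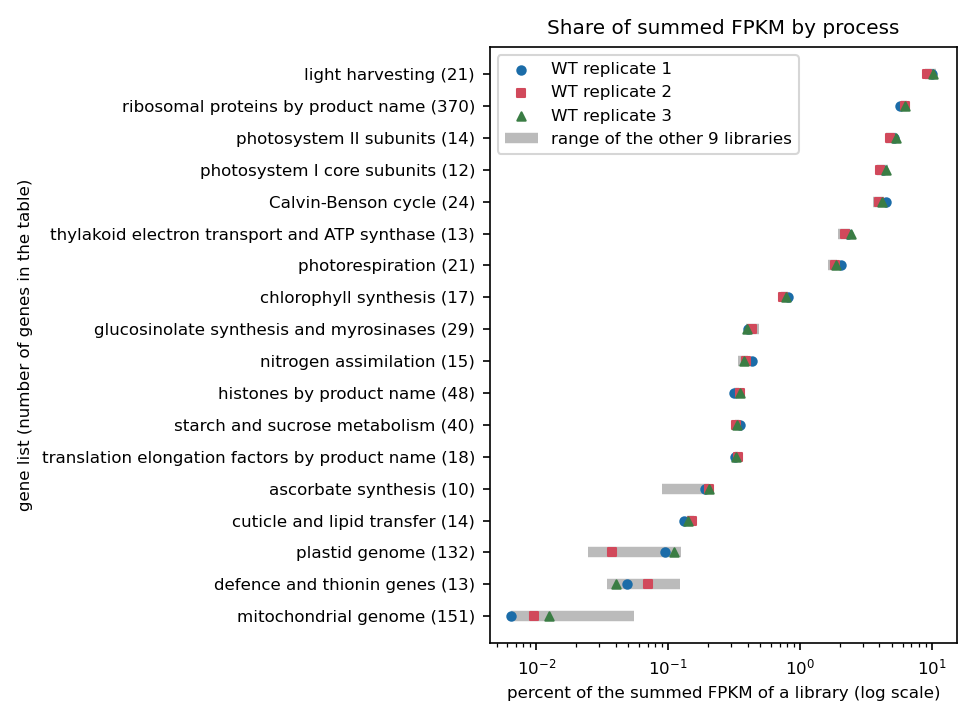
Percent of summed FPKM in each process, with 1 marker per WT library and a grey band for the range of the other 9 libraries, on a logarithmic axis. Light harvesting at 9.81% and ribosomal proteins at 6.08% are the largest single classes per length, and the plastid genome, at 0.0807 ± 0.0383%, has the widest spread between libraries relative to its mean.

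Ascorbate synthesis, the pathway the study altered, took 0.201 ± 0.00786% of the sum in WT and 0.0917% in vtc2. VTC2 held 55.3 ± 2.83% of the summed FPKM of its 10 genes. GME, the epimerase that makes GDP-L-galactose, followed at 375, 338 and 338 FPKM, and VTC1, which makes GDP-mannose, at 121, 124 and 129 FPKM. The last enzyme, GLDH, which makes ascorbate from L-galactono-1,4-lactone, was the lowest member at 8.35, 7.59 and 8.01 FPKM. VTC5, the close relative of VTC2, lay at 18.9, 19.7 and 21.6 FPKM, so the ratio of VTC2 to VTC5 was 40.7 ± 1.097 in WT.

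Listed zeros need care, because 3 genes that leaves are known to use heavily were at exactly 0 in all 12 libraries. They were RBCS1A (AT1G67090, a Rubisco small subunit, chr1:25048158-25049667, minus strand), RCA (AT2G39730, Rubisco activase, chr2:16570746-16573692, minus strand) and LHCB1.3 (AT1G29930, an antenna gene, chr1:10477885-10479114, plus strand), with coordinates of the RefSeq TAIR10.1 annotation. LHCB1.3 overlaps NRPA2, a subunit of RNA polymerase I on the opposite strand, by 108 bases, and RCA overlaps AT2G39725 by 3 bases, and both neighbours were at 0 in all 12 libraries as well. No annotated gene overlaps RBCS1A. Among 3586 overlapping pairs of protein-coding genes, 66 had both members and 470 had 1 member at 0 in all 12. Of all protein-coding genes taken singly, 16.9% were at 0 in all 12, and whether overlap goes with zeros was not tested. A listed zero is therefore reported as such and not as absence, the shares of light harvesting and carbon fixation lack these genes, and the cause was not tested.

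In 14 gene families the members used by the rosette were compared, and in 13 the first member lay above the next in every library, in 10 of them with no overlap between their ranges. With levels multiplied by transcript length the leader was another gene in 3 families, BCA2 in place of BCA1, LHCB1.1 in place of LHCB1.5 and CLCA in place of NPF6.2. The Rubisco small subunit was divided among RBCS3B at 4833 ± 539, RBCS2B at 3965 ± 479 and RBCS1B at 2881 ± 185 FPKM, near-identical copies of which the first and second overlapped in range. The remaining member, RBCS1A, is listed at 0 in all 12 libraries, so this order holds only among the 3 genes with a value. Carbonic anhydrase, which interconverts carbon dioxide and bicarbonate, rested on BCA1 at 3160.6, 2483.5 and 2676.9 FPKM and BCA2 at 2768, 2179 and 2311 FPKM. The ratio of BCA1 to BCA2 held within 1.15 ± 0.0101 although both fell and rose between libraries. BCA1 overlaps AT3G01510 by 343 bases on the same strand, so some of its reads could belong to either gene.

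Catalases, which break down hydrogen peroxide from photorespiration, were shared by a pair of genes. CAT3 had 1652, 1610 and 1322 FPKM and CAT2 had 1634, 1415 and 1484 FPKM. Their order differed between libraries, while CAT1 was far below at 14.6, 13.3 and 11.7 FPKM. Glutamine synthetase, which fixes ammonium, was led by the plastid form GLN2 at 1390, 1176 and 1338 FPKM, or 74.2 ± 1.79% of the family. The cytosolic GLN1;2 stood at 394, 373 and 377 FPKM. Nitrate reductase was mostly NIA2, at 13.9 ± 0.941 times the level of NIA1.

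Aquaporins, the water channels, were used broadly in the plasma membrane and narrowly in the tonoplast. PIP1;2 led the plasma membrane group at 1493, 1436 and 1476 FPKM with PIP2;1 close behind at 1362, 1255 and 1362 FPKM, and 10 of 13 members had a mean of at least 10 FPKM. In the tonoplast, TIP2;1 at 1798 ± 90.8 FPKM held 52.6 ± 0.596% of the family and TIP1;2 followed at 1334 ± 51.8 FPKM. TIP1;3, TIP2;3, TIP3;1, BETA-TIP and TIP5;1 were listed at 0 in all 3 libraries. TIP3;1 and BETA-TIP are known from seeds and TIP1;3 and TIP5;1 from pollen.

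The structural families showed the same uneven use. ACT2 held 64.1 ± 1.60% of actin at 935, 833 and 885 FPKM, ahead of ACT8 at 300.2 ± 6.15 and ACT7 at 154, 162 and 159 FPKM. All 15 tubulin genes had a mean of at least 10 FPKM, and TUB4 led with only 18.8 ± 0.625% of the summed level. Of the cellulose synthases, the primary wall genes CESA3, CESA1 and CESA6 stood at 104.8 ± 7.06, 93.3 ± 8.34 and 62.8 ± 5.07 FPKM. CESA4, of the secondary wall, stood at 2.27 ± 0.312 FPKM. AHA1, a proton pump of the plasma membrane, had 194, 177 and 155 FPKM against 75.6, 78.6 and 70.8 FPKM for AHA2.

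Metallothioneins followed the order MT3, MT2B and MT1A. MT3 and MT2B did not overlap in range, with MT2B at 1885, 2059 and 2214 FPKM, whereas MT1A at 1357, 1955 and 1386 FPKM reached into the range of MT2B through WT replicate 2. Among nitrate transporters NPF6.2 led at 72.9, 71.2 and 80.5 FPKM, ahead of the vacuolar exchanger CLCA at 57.1 ± 5.97 and the dual-affinity transporter NPF6.3 at 48.3 ± 1.88 FPKM. NRT2.1, the high-affinity transporter best known from roots, had 0.0432, 0.127 and 0.0854 FPKM, and NRT2.2 and NRT2.4 were listed at 0 in all 12 libraries. Sucrose synthase was low as a family, with its leader SUS1 at 7.87, 6.70 and 6.97 FPKM.

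**Figure D3:**
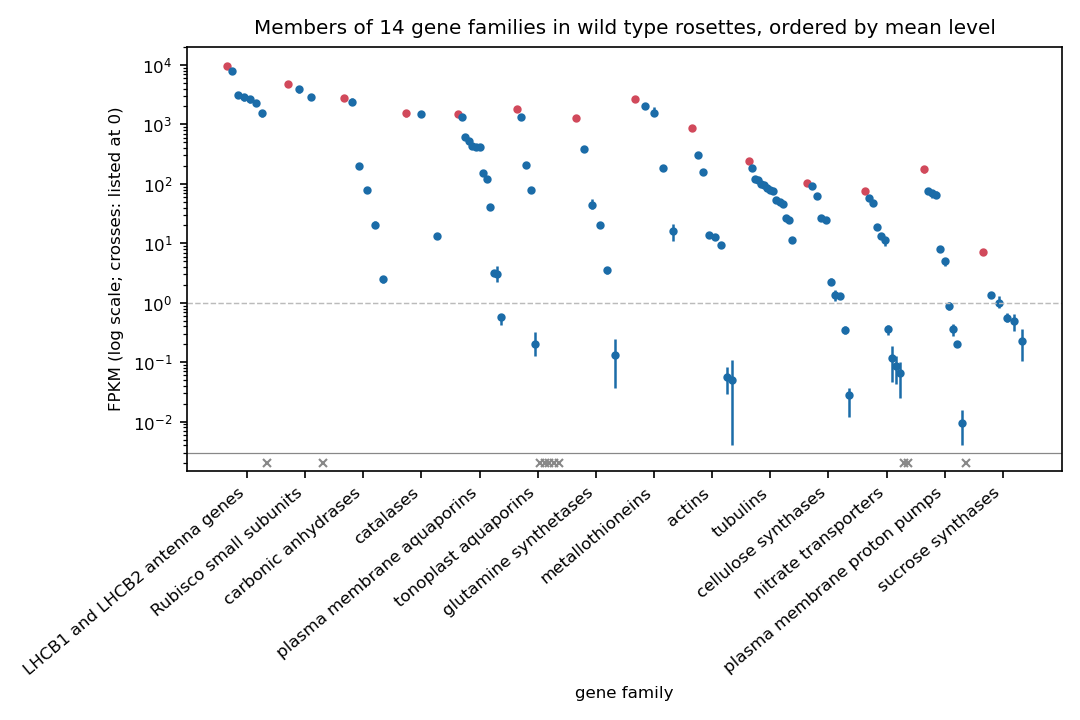
Mean WT FPKM of every member of the gene families on a logarithmic axis, with the leading member of each family in red, bars from the lowest to the highest of the 3 libraries, crosses for members listed at 0 in all 3 libraries and bars that reach 0 ended at 0.004 FPKM. Members of a single family range from ACT2 at 884 FPKM to values near 0, while the 15 tubulin genes lie close together.

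Morning clock genes stood far above evening clock genes at this hour. All 13 genes of the morning list were above 1 FPKM in every WT library, and their summed level was 2758, 2605 and 2547 FPKM. CCA1 (AT2G46830) had 410.7, 421.1 and 394.8 FPKM, and LHY (AT1G01060), its close relative, had 480.7, 439.2 and 443.1 FPKM. LNK2, a cofactor of the related RVE factors, was the highest at 825.8, 750.2 and 684.0 FPKM. RVE4, which like RVE8 activates evening genes, had 271 ± 27.5 FPKM and RVE8 had 124 ± 2.33 FPKM. PRR9, the earliest of the pseudo-response regulators that repress CCA1 and LHY, was at 36.9, 48.0 and 49.5 FPKM.

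The 12 day and evening genes summed to 74.7, 68.7 and 65.8 FPKM, and 6 of them reached 1 FPKM in all 3 libraries. TOC1 (AT5G61380) had 3.93, 3.66 and 3.14 FPKM, LUX (AT3G46640), of the evening complex, had 1.35 ± 0.0501 FPKM, and GI, a large protein of photoperiod timing, had 0.834, 1.45 and 1.76 FPKM. PRR5 (AT5G24470) had 0.501, 0.435 and 0.714 FPKM. FKF1 (AT1G68050), a blue-light receptor that peaks late in the day, was listed at 0, 0.0205 and 0 FPKM, and ELF4, of the evening complex, at 0, 0 and 0.0833 FPKM. The ratio of LHY to TOC1 was 122, 120 and 141, a gap far wider than the spread between libraries. ZTL, at 26.5 ± 2.07 FPKM, and PRR7, at 24.5 ± 2.56 FPKM, led the list.

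The promoters of these genes are shown because the evening element is the sequence through which CCA1 and LHY are known to act on evening genes. The 300 bases before the annotated start were read from the RefSeq TAIR10.1 genome and are written 5′ to 3′ on the strand of the gene. Capitals mark the evening element, searched as AAAATATCT on both strands, so that a match to the other strand reads AGATATTTT.
TOC1, chr5:24674663-24674962, plus strand: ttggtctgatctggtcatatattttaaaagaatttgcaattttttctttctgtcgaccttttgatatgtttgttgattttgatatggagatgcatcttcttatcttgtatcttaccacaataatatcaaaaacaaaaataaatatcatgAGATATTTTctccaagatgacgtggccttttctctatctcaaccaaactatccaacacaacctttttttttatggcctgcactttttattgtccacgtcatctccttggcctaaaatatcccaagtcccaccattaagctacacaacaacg
PRR5, chr5:8358547-8358846, minus strand: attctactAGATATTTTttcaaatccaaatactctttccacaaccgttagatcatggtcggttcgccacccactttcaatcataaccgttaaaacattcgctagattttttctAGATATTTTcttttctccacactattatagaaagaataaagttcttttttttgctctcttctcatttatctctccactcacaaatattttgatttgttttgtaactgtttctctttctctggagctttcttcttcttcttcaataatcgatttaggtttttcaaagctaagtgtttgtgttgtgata
LUX, chr3:17182742-17183041, plus strand: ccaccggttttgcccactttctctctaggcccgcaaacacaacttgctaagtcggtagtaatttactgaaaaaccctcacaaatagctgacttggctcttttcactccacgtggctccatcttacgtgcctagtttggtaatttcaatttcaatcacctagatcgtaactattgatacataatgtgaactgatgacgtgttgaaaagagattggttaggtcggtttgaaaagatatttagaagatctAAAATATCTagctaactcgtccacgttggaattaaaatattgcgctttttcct
FKF1, chr1:25508339-25508638, plus strand: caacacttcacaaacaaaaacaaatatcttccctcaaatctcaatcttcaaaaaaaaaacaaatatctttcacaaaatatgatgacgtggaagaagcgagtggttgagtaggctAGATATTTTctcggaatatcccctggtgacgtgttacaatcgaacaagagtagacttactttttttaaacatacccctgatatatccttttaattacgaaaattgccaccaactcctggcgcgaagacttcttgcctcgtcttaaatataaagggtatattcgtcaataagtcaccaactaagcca
The match ended 143 bases before the start in TOC1, 45 in LUX and 178 in FKF1, and PRR5 held a match at each of 179 and 284 bases. Of the 12 day and evening genes 5 held the element, these and BOA, against 1 of the 13 morning genes (RVE7) and 2.79% of the windows of all 27441 genes.

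The G-box, CACGTG, a palindrome bound by factors such as HY5 and the PIF proteins, was read in the same windows and is in capitals in the promoters of the main morning genes.
CCA1, chr2:19245291-19245590, plus strand: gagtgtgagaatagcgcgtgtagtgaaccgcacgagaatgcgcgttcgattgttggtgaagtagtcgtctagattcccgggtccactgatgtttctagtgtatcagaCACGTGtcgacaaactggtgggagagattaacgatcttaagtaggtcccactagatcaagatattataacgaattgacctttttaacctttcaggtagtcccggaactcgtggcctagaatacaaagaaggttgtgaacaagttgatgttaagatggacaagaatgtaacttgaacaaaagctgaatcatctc
LHY, chr1:37872-38171, minus strand: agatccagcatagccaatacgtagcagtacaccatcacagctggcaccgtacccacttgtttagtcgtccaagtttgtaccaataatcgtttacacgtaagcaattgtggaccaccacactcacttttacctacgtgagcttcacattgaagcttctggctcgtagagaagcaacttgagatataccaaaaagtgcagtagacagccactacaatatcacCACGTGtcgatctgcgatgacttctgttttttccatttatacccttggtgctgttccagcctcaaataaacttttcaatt
It ended 188 bases before the start in CCA1 and 75 bases before it in LHY. Of the 13 morning genes 6 held a G-box (CCA1, LHY, RVE1, RVE2, LNK3 and PRR9), of the 12 day and evening genes 3 did, and of all windows 7.08% did. The CCA1-binding site, AAAAATCT, was in 2 of the 12 day and evening genes, 2 of the 13 morning genes and 7.94% of all windows. The telo-box, AAACCCTAA, was in 0 genes of either list and 3.04% of all windows. None of the motifs searched contains another. A match is a description of letters, and binding was not measured here.

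**Figure D4:**
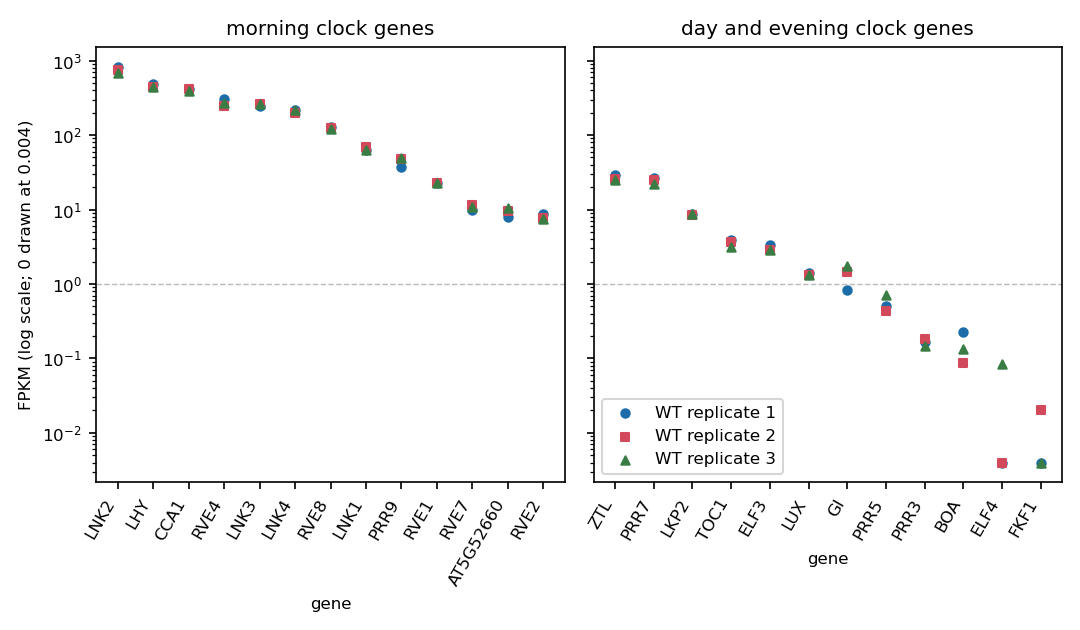
FPKM of the morning and the day and evening clock genes in the 3 WT libraries on a logarithmic axis with values of 0 drawn at 0.004 FPKM and a dashed line at 1 FPKM. CCA1 and LHY lie between 394.8 and 480.7 FPKM and TOC1 between 3.14 and 3.93 FPKM in every library.

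Genes that follow light and darkness were both present 30 min after lights on. The light-induced list was above 10 FPKM in all 10 of its members by the mean, with BBX24, a zinc finger regulator of light responses, at 368, 373 and 405 FPKM. HY5, the central transcription factor of light signalling, had 109, 125 and 139 FPKM, and ELIP1, a protein induced by excess light, had 23.4, 25.5 and 34.6 FPKM. Of these genes 9 of 10 were highest in WT replicate 3. Of the 12 genes tied to darkness, sugar shortage or shade, 3 had a mean of at least 100 FPKM. These were SEN1 at 392, 305 and 291 FPKM, ASN1, an asparagine synthetase, at 195, 146 and 134 FPKM and DIN10, a raffinose synthase homologue, at 176, 120 and 120 FPKM. The lowest of the list were HFR1, at 3.12, 2.65 and 3.92 FPKM, and PIL1, with a mean below 1 FPKM. Of the 8 with a mean of at least 10 FPKM, 7 were highest in WT replicate 1. The pools thus differed in opposite order on the light and dark lists, but other lists were skewed as well. WT replicate 3 was highest in 11 of 12 photosystem I genes. WT replicate 1 was highest in 16 of 20 starch and sucrose genes and in 7 of 8 photoreceptors with a mean of at least 10 FPKM. The share over all genes was not counted. The exact freezing times of the pools are not in the labels, and their part in this was not tested.

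All 10 photoreceptors reached 1 FPKM. The blue-light receptors PHOT1 and PHOT2 led at 100.9 ± 8.04 and 93.2 ± 9.37 FPKM, followed by PHYA, the far-red sensor, at 97.2, 82.0 and 69.1 FPKM and CRY1, a cryptochrome, at 59.9 ± 7.65 FPKM. PHYB, the main red-light receptor of light-grown plants, stood at 28.1 ± 1.87 FPKM. Of the photoperiod genes, CDF3, which belongs to a family of repressors of CO, had 123, 137 and 129 FPKM and the floral repressor SVP had 85.1 ± 3.04 FPKM. CO itself had 0.0666, 0.155 and 0.119 FPKM, and its target FT, the mobile flowering signal, was listed at 0 in all 3 WT libraries, as was TSF, its close relative. FLC, a floral repressor, was low at 0.0480, 0.0934 and 0.236 FPKM.

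Marker genes placed the material as rosette leaf. Of 6 mesophyll markers 4 lay above 100 FPKM, the other two being RBCS1A and RCA, which are listed at 0. In bulk RNA fewer cells of a type and less RNA per cell cannot be told apart. The epidermis was represented by LTP1, a lipid transfer protein of the surface, at 502, 580 and 596 FPKM and by the epidermal regulator ATML1 at 24.8 ± 1.22 FPKM. Of the 12 epidermis genes, 7 had a mean of at least 10 FPKM and 2 a mean below 1 FPKM. The phloem was represented by SWEET11, a sucrose exporter, at 127, 128 and 114 FPKM and SUC2, the sucrose loader of companion cells, at 54.0 ± 3.98 FPKM. Of the 10 phloem genes, 6 had a mean of at least 10 FPKM and 1 a mean below 1 FPKM. The guard cell list summed to 49.3 ± 1.21 FPKM, with MYB60, a guard cell transcription factor, at 12.4 ± 1.04 FPKM. MYB60 was the only 1 of the 12 guard cell genes with a mean of at least 10 FPKM, and 4 had a mean below 1 FPKM. XCP2, a protease of xylem vessels, had 14.6, 14.4 and 15.1 FPKM. It was the only 1 of the 10 xylem and secondary wall genes with a mean of at least 10 FPKM, and 3 had a mean below 1 FPKM.

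The growing point left a faint trace. CLV1, a receptor kinase of the meristem, had 15.4, 14.3 and 13.1 FPKM, STM, which maintains the meristem, had 1.23, 1.15 and 3.21 FPKM, and WUS and CLV3 were listed at 0. The mitotic cyclin CYCB1;1 had 0.661, 0.392 and 0.821 FPKM, while CDKA;1, the kinase present through the cell cycle, had 40.7 ± 1.99 FPKM. These were the lowest and the highest of the 10 cell division genes. Of the 10, 8 reached 1 FPKM in all 3 WT libraries, 1 had a mean of at least 10 FPKM and 2 a mean below 1 FPKM. SAG12, a protease of late senescence, had 1.22, 12.9 and 4.22 FPKM, so its level in replicate 2 stood far above the others. All 7 genes of the senescence list reached 1 FPKM in all 3 WT libraries, and 4 had a mean of at least 10 FPKM.

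Genes typical of flowers, seeds, roots and pollen were nearly all low or listed at 0. Of the 61 genes on the floral, seed, root and pollen lists, 59 were below 1 FPKM in all 3 WT libraries, 45 were below 0.1 FPKM and 33 were listed at 0, of which 24 were at 0 in all 12 libraries. The 12 floral genes summed to 1.07 ± 0.191 FPKM, and the highest of them was AG, of stamens and carpels, at 0.431, 0.571 and 0.607 FPKM. The seed list summed to 0.175 ± 0.132 FPKM, with the storage protein genes CRU2, CRU3, SESA3, SESA4 and SESA5 at 0 in all 12 libraries. The egg cell genes EC1.1, EC1.2 and EC1.3, the pollen factor DUO1 and the root stem cell factors PLT1 and PLT2 were also at 0 in all 12. The exceptions were PYK10, a root beta-glucosidase, at 10.9, 13.97 and 17.3 FPKM, and AHA8, a proton pump placed on the pollen list, at 5.74, 5.29 and 4.22 FPKM.

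Across the annotation, 11010 identifiers were listed at 0 in all 3 WT libraries and 9322 in all 12. Of the protein-coding genes 5842, or 21.3%, were at 0 in WT, and 4641, or 16.9%, in all 12. Most classes of short and non-coding RNA were largely at 0, with all 524 tRNA genes, 247 of 277 snoRNA genes, 99 of 112 miRNA genes and 2874 of 3476 lncRNA genes. Of the class annotated as other ncRNA, 89 of 220 were at 0. The libraries were made with an mRNA kit, and its part in these zeros was not tested. Of the zeros in WT, 1688 of the 11010 were above 0 in another library, 142 reached 1 FPKM in any of them, and 6 did so in all 3 libraries of another genotype. Examples were AT3G05955, at 3.25, 2.19 and 2.33 FPKM in vtc2, and AT1G04193, at 17.7, 19.2 and 22.9 FPKM in OE. The latter also changed between 0 and higher values within genotypes, with 0, 21.5 and 44.6 FPKM in vtc2 and 17.2, 0 and 0 FPKM in vtc4. Both were named after their values were seen.

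Annotated gene structure differed with level. Protein-coding genes at 0 in WT had a median annotated transcript of 825.5 bases and 34.3% of them had a single exon, against 1517 bases and 20.5% over all protein-coding genes. Genes of 1 to 10 FPKM had a median of 1849.5 bases and those of 1000 FPKM or more had 1282 bases. FPKM is itself divided by transcript length, and a short transcript yields fewer fragments at equal level. Length is therefore not independent of these classes, and its part in the differences was not tested. A G-box stood in 4.01% of windows of genes at 0 (234 of 5842), in 8.70% at 100 to 1000 FPKM (86 of 988) and in 21.3% at 1000 FPKM or more (19 of 89). A TATA motif, TATAAA on the gene's strand, was in 42.1% of windows of genes at 0 and in 34.8% at 1000 FPKM or more. The highest gene, LHCB1.5, held 1 such match that ended 26 bases before the start, in capitals here.
LHCB1.5, chr2:14523569-14523868, minus strand: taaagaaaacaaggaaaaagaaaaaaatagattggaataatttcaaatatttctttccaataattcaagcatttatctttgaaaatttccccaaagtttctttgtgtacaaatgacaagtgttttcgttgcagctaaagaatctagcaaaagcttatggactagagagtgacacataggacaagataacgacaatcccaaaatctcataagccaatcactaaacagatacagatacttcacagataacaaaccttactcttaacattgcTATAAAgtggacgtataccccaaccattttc
These shares describe letters in the windows and carry no test.

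Organelle transcripts were a small part of the libraries. The plastid genome took 0.0807 ± 0.0383% and the mitochondrial genome 0.00953 ± 0.00304% of the summed FPKM. In all 3 WT libraries 64 of 132 plastid and 115 of 151 mitochondrial identifiers were listed at 0. The libraries were made with an mRNA kit, so these shares are not read as organelle levels of the leaf, and the part of the kit was not tested. The highest plastid identifier, ATCG00090, was listed at 408, 0 and 401 FPKM, so that the library at 0 set the spread of the class. ATCG00470 had 43.7, 39.4 and 58.1 FPKM, and the highest mitochondrial identifier, ATMG01380, had 21.3, 33.5 and 67.0 FPKM.

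The replicate pools were close to each other. Among 8743 nuclear identifiers with a mean of at least 10 FPKM, the SD was 6.84% of the mean in the median gene, against 6.10% in vtc2, 5.69% in vtc4 and 6.01% in OE. It exceeded 30 percent in 66 identifiers (0.755%), of which 40 were not protein-coding. By level, the median was 10.8% at 1 to 10 FPKM, 6.84% at 10 to 100, 6.70% at 100 to 1000 and 8.56% above 1000 FPKM. The class above 1000 FPKM was thus more variable than the one below it, and it holds the genes that were mostly lowest in replicate 2.

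The 8 most variable identifiers were all non-coding and each was seen in a single library, such as AT1G04527 at 0, 0 and 630 FPKM. How many fragments such values rest on was not counted, and on a short transcript few fragments give a high FPKM. The protein-coding genes alone had a median of 6.81%. Among the most variable of them, chosen after their values were seen, were PR1, a marker of salicylate defence, at 21.1, 50.2 and 23.0 FPKM, PDF1.3, a defensin, at 20.8, 47.2 and 18.8 FPKM, and SPX1, a sensor of phosphate supply, at 13.9, 27.5 and 36.8 FPKM. The 8 defence genes above 10 FPKM had a median SD of 30.5% of the mean. All 13 genes of the defence list summed to 361, 501 and 304 FPKM, highest in replicate 2. QQS, a gene known only from Arabidopsis that affects starch, had 9.80, 19.5 and 8.37 FPKM.

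The steadiest nuclear genes were EML2, AT1G20823, TGG2 and ECT1. TGG2, a myrosinase gene, had 600.3, 599.9 and 600.1 FPKM, and EML2, an EMSY-like gene, had an SD of 0.00251 FPKM about 14.6 FPKM. Such closeness is an extreme picked from 8743 identifiers, and TGG2 ranged from 545 to 814 FPKM over the other 9 libraries. Actin genes, with a median of 4.12%, cuticle genes, with 4.19%, and plasma membrane aquaporins, with 4.42%, were steadier than the photosynthesis lists, whose medians ran from 7.97% to 9.33%. In all, 23 identifiers were at 0 in exactly 1 WT library while reaching 5 FPKM in another, and 2 of them were protein-coding.

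**Figure D5:**
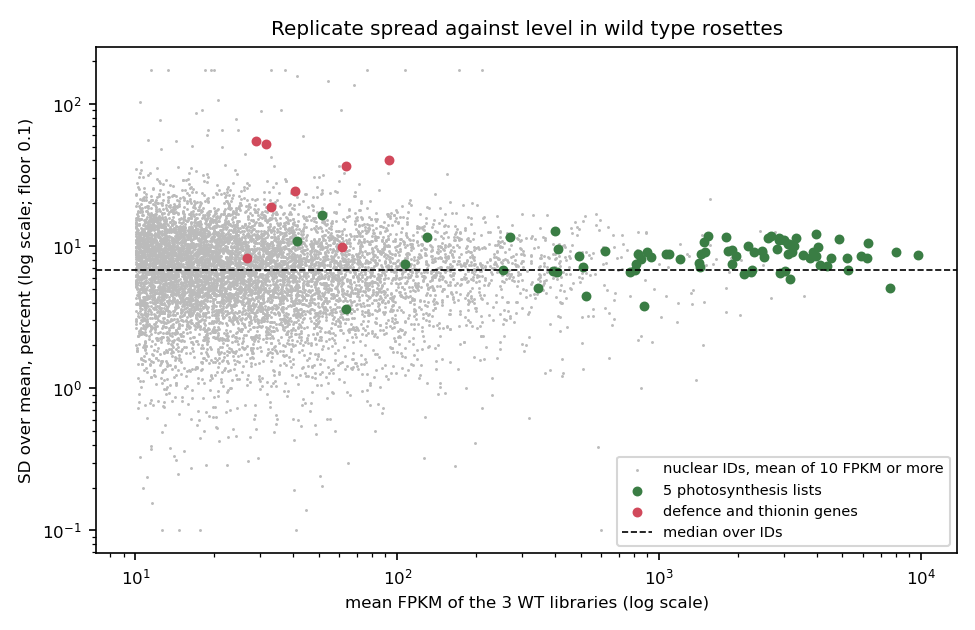
SD as a percent of the mean against mean WT FPKM for the 8743 nuclear identifiers with a mean of at least 10 FPKM, on logarithmic axes, with the 5 photosynthesis lists in green, defence genes in red, the median of 6.84% dashed and values under 0.1% drawn at 0.1%. The photosynthesis genes sit at high levels close to the median line, and the defence genes, with a median of 30.5%, lie mostly above it.

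Finally, WT was set against the mean of the other genotypes with limma on log2(FPKM + 1) over 17290 genes. At an adjusted p below 0.05, 7 genes or 0.0405% were called, 5 higher (0.0289%) and 2 lower (0.0116%) in WT, and 5 of them differed at least 2-fold. VTC2 (log2 difference 2.22, SE 0.0869, limma adjusted p 3.85e-08) and VTC4 (log2 difference 1.55, SE 0.0787, limma adjusted p 5.02e-07), the genes altered in the mutants themselves, were among those higher in WT. In 4 of the other 5 the OE values lay with those of WT and the difference came from vtc2 and vtc4. MRD1 (AT1G53480), named for its lower transcript level in the mto1 mutant, had 30.5, 32.0 and 30.4 FPKM in WT, 30.7 ± 2.41 in OE and at most 0.454 FPKM in vtc2 and vtc4 (log2 difference 3.13, SE 0.0976, limma adjusted p 7.49e-09). HEI10, a meiotic crossover gene that overlaps MRD1 on the opposite strand by 1446 bases, followed the same split with 2.35, 2.31 and 2.2 FPKM in WT, 0.338 ± 0.218 in vtc2, 0.432 ± 0.0811 in vtc4 and 2.45 ± 0.447 in OE (log2 difference 0.82, SE 0.109, limma adjusted p 0.0174). The adjusted p of HEI10 passed 0.05 with any WT library left out, at 0.0577 to 0.143, and without vtc4 replicate 3, at 0.0505, or OE replicate 1, at 0.0593, while the log2 difference stayed between 0.80 and 0.83. AT5G11330 also followed the split of MRD1, with 44.1 ± 1.17 FPKM in WT, 44.2 ± 2.35 in OE, 18.8 ± 0.971 in vtc2 and 18.9 ± 1.60 in vtc4 (limma adjusted p 1.99e-05). The call of AT5G11330 was kept with any 1 library left out. The strand setting of the authors' counting is not given, so reads of MRD1 and HEI10 cannot be told apart.

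AT1G75945 was the only called gene whose WT values lay outside all the other libraries, at 0, 0.272 and 0 FPKM against 7.33 to 11.7 FPKM (log2 difference -3.28, SE 0.110, limma adjusted p 8.76e-09). AT1G64795 was at 0, 0.836 and 0 FPKM in WT and at 0 in all of OE, but between 78.0 and 127 FPKM in vtc2 and vtc4 (log2 difference -4.14, SE 0.176, limma adjusted p 7.52e-08). Without overlap between WT and the other 9 libraries there were 160 genes, or 0.925% of those tested, and 1301 genes had an unadjusted p below 0.05.

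Of the genes on all lists described here, 403 of 511 were tested, 2 were called (VTC2 and VTC4), 8 (1.99%) showed no overlap, and their median log2 difference was 0.05 against 0.00 for all genes. LHY, GGT1, PGI1 and ESP were above, and LTP2, CER1, GL2 and PYK10 below, every other library, without passing the test. The lowest adjusted p among them was 0.0635 for PYK10, at 10.9, 13.97 and 17.3 FPKM in WT against 18.6 to 31.2 FPKM elsewhere. With 1 library left out at a time, 6 or 7 of the 7 calls were shared each time. The count rose to 16 without WT replicate 3 and to 13 without OE replicate 2, and was 6 to 9 without any other library. Against vtc2 alone 523 genes were called, 385 higher and 138 lower in WT, and against OE alone 3.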

How the data were processed

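RNA of 12 Arabidopsis rosette libraries, 3 of them WT, was sequenced, and the authors deposited 1 table of FPKM values with a column per library. TAIR10 is the build named in the labels, and Cuffdiff, Cufflinks 2.2.1, HISAT2 2.1.0 and Trimmomatic 0.36 are the programs, per the submitters' processing notes. Which annotation, strand option and normalization were used is not given in the sources used here. Read totals are not given. The value of 1 fragment was read from the lowest values of long single-exon genes, 7, 3 and 6 of them in the 3 WT libraries, and 82.4%, 100% and 100% of the 17, 16 and 16 low values checked were whole multiples of it within 0.1 fragments.

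Symbols, gene types, coordinates, overlaps, transcript lengths and promoters came from RefSeq TAIR10.1, which matched 32217 of the 33618 identifiers. Levels, shares, family orders and SD over mean were computed in python 3.11.15 with pandas 2.3.3 and drawn with matplotlib 3.10.9, and carry no test. An identifier counted as detected at 1 FPKM or more in all 3 WT libraries. Ribosomal proteins of different compartments were kept in 1 class, since product names did not separate them.

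For the comparison, limma 3.58.1 in R 4.3.3 was run on log2(FPKM + 1) for genes with at least 1 FPKM in at least 3 libraries, with genotype as the factor, all 12 libraries in 1 fit, a mean-variance trend and two-sided Benjamini-Hochberg adjusted p-values, and it was tested on simulated data. The fold changes on this scale understate those of low genes. The genes named were VTC2 and VTC4, genes from the 25 highest nuclear and 5 highest plastid and mitochondrial identifiers, and high and zero members of the lists. Further ones came from the 8 most and 4 least variable nuclear genes, the 7 genes called, and the list members without overlap. Some others were named after their values were seen. The WT libraries, members and lists were chosen with earlier results of these data known. Other pseudocounts, filters, scalings, models and left-out libraries were tried.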

Additional observations from a re-analysis of the deposited data

How the results depend on the processing

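The WT photosynthesis share of 25.7% became 20.4% with weighting by transcript length and was 24.2% in the vtc2 libraries. The median SD over mean of 6.84% became 8.38% for genes of at least 1 FPKM and ranged from 5.13% to 6.52% when 1 WT library was left out, which leaves 2 values a gene. Detected identifiers ranged from 11612 at 5 FPKM to 19349 at 0.1 FPKM. The 7 genes called for WT against the rest became 11 without the trend, 17 with library weights, 523 against vtc2 alone and 3 against OE alone, and 6 to 16 when 1 library was left out; the cause was not tested. Replicate numbers did not pair the samples: correlations of same-numbered libraries ran from -0.169 to 0.204, 3 of 12 libraries correlated best with their own number, and a replicate block gave 11 calls. Against OE alone the log2 difference changed sign without a call for 3 genes. It was -0.0609 for HEI10 (AT1G53490, limma adjusted p 0.982), 0.29 for AT1G64795 (limma adjusted p 0.923) and -0.000434 for AT5G11330 (limma adjusted p 0.999). Against vtc2 alone it was -0.0393 for VTC4 (AT3G02870, limma adjusted p 0.861), also without a call. With a pseudocount of 0.1, HEI10 had an adjusted p of 0.0804. Of the settings for named genes 161 kept the call, 9 lost it and 4 changed sign without a call. Of those for single process shares 137 stayed within 1 SD and 30 moved. Depth limits values below about 0.1 FPKM on transcripts near 1 kilobase, which rest on few fragments. On shorter transcripts it limits higher values as well.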
